A study of Mus musculus with 9 samples.

Results

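The zinc finger genes of mouse chromosome 7 were examined by RNA-seq in Panc02 cells, which derive from a ductal carcinoma of the mouse pancreas, in 9 libraries. Members were all genes named Zfp plus digits alone that the deposited count tables place on chromosome 7 and that had at least 10 counts in at least 3 libraries. Of 92 such genes, 77 met the count minimum, out of 49671 genes in the tables, and the members were thus selected on their counts in any library, the minimum being the only measured value in the rule. A gene could pass through a single group where it was high, as Zfp976 did through parental. The group was proposed after the genes of chromosome 7 as a whole had been seen to stand lower in one clone, so its shift is described here and not tested as a set. The study concerned VPAC2, a receptor for vasoactive intestinal peptide encoded by Vipr2, and its part in pancreatic cancer growth. KO_1E7 was a single clone with the genotype label VPAC2 knock out, CRISPR_1G2 a single clone labelled CRISPR-wild type, and parental the line labelled wild type, with 3 libraries each. The design text speaks of a pair of clones from edited knockout cells, whereas CRISPR_1G2 is labelled wild type, and the labels were followed. All cells were grown in DMEM with 10% serum, without treatment. Because the knockout is 1 clone, effects of losing VPAC2 and other differences between clones cannot be told apart.

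Most proteins of this family bind DNA through a row of C2H2 zinc fingers, each a short loop held by a zinc ion. Many also carry a KRAB domain, which recruits the corepressor TRIM28 and through it the histone methyltransferase SETDB1 and heterochromatin proteins, and which silences retroelements. Their genes arose by repeated duplication and lie in clusters, several of them on mouse chromosome 7. Translated GENCODE M21 coding sequences gave a protein for 75 members, with a median of 12 C2H2 fingers and a range of 0 to 33. The most fingers were in Zfp619, and Zfp36, the mRNA decay factor tristetraprolin, whose fingers are of another type, had 0. A KRAB A box pattern was found in 44 of the 75 proteins and not in the other 31. The annotation lists the other 2 members, Zfp419 and Zfp939, as pseudogenes.

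Depth ranged from 27898705 to 51878289 counts on genes per library, and all 77 members were among the 15766 genes tested. Vipr2 had 1, 2 and 1 counts in the KO_1E7 libraries, 1, 13 and 12 in CRISPR_1G2 and 6, 3 and 12 in parental, which is too few to check the label. All 10 duct and carcinoma markers reached 10 counts in 3 libraries, with summed levels of 1272 to 2093 CPM (counts scaled to a common library size) in KO_1E7, 882 to 2099 in CRISPR_1G2 and 1347 to 2037 in parental. All 4 mesenchymal markers did so too. They summed to 1263 to 2185 CPM in KO_1E7, 701 to 2999 CPM in CRISPR_1G2 and 804 to 2720 CPM in parental. Of the fibroblast markers 1 of 4 did so, Pdgfra. The fibroblast set summed to 10.2 to 14.4 CPM in KO_1E7, 7.02 to 14.0 CPM in CRISPR_1G2 and 6.59 to 11.5 CPM in parental. Of the islet markers 0 of 4 did so, and of the endothelial markers 2 of 4, summing to at most 1.40 CPM. Of the immune markers 6 of 8 did so, summing to 20.2 to 21.8 CPM in KO_1E7, 18.8 to 28.1 CPM in CRISPR_1G2 and 3.34 to 21.7 CPM in parental. Of the acinar markers 1 of 5 did so, Cela1, and the summed level of 7.38 to 13.2 CPM in KO_1E7 was above the 1.16 to 2.14 CPM of CRISPR_1G2 and the 2.21 to 2.87 CPM of parental. The part of these cell types' transcripts in the results was not tested. Several libraries stood apart within their group. On the first principal component, which held 42.7% of the variance, libraries 1, 2 and 3 were at 66.9, 47.1 and 68.3 in KO_1E7, at -15.1, -19.2 and -86.3 in CRISPR_1G2 and at -9.88, 6.48 and -58.2 in parental. A transcript listed as CT010467.1 took 15.3% of the counts of parental 3. Library 3 of every group carried the word NSG in its name, which the labels do not explain. The labels do not say that replicates came from separate cultures, so p-values measure the spread between these libraries, which may be technical.

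Nearly all zinc finger genes of chromosome 7 stood lower in KO_1E7 than in parental cells. Summed over the 77 members, the level was 768, 894 and 773 CPM in KO_1E7 libraries 1, 2 and 3, 1331, 1303 and 1643 CPM in CRISPR_1G2 and 1278, 1247 and 1323 CPM in parental. The group means were 811.5 ± 71.4, 1426 ± 188 and 1282 ± 38.2 CPM (SD, n = 3 each), and the KO_1E7 libraries did not overlap with the other 6. The median member stood, as a log2 ratio to the parental mean with 0.1 CPM added, at -0.61, -0.43 and -0.62 in KO_1E7, at 0.05, 0.02 and 0.27 in CRISPR_1G2 and at 0.02, -0.02 and -0.00 in parental. Below the parental mean lay 72, 64 and 71 of the 77 members in KO_1E7 libraries 1, 2 and 3. In bulk RNA, fewer cells of a type and less RNA per cell cannot be told apart. The other genes of chromosome 7 were also low in KO_1E7, with medians of -0.49, -0.32 and -0.51. Zinc finger genes of other chromosomes had medians of 0.02, 0.14 and 0.11 in the same libraries, and 0.31 in CRISPR_1G2 3, where the members were highest too.

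**Figure D1:**
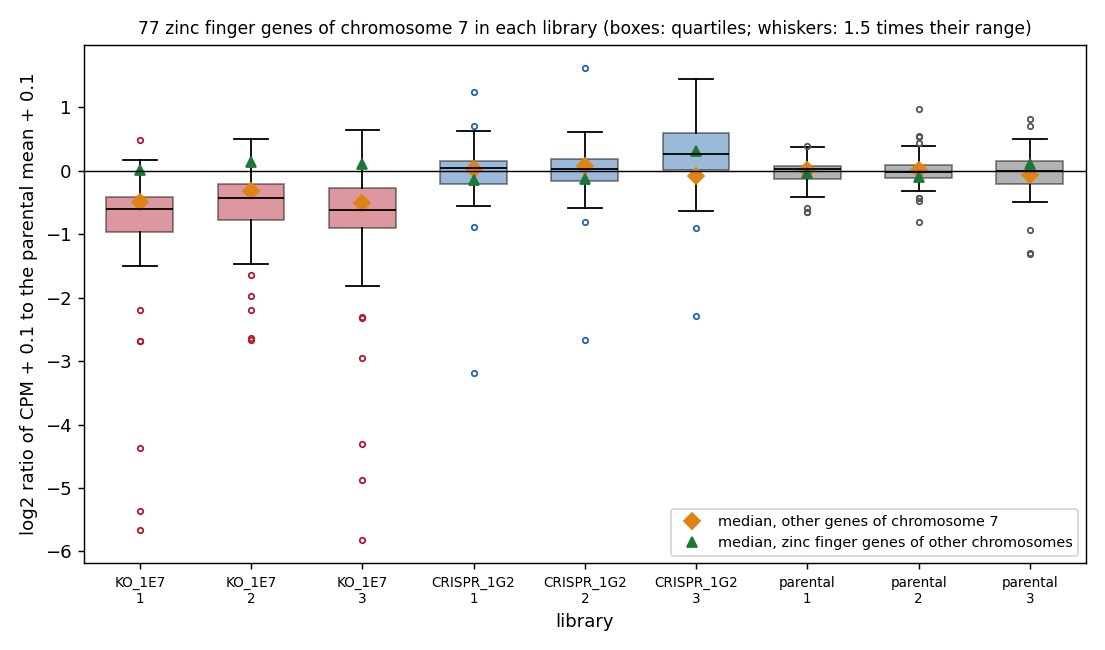
Log2 ratio of each of the 77 members to the parental mean (CPM + 0.1) in each library, as boxes of quartiles with whiskers to 1.5 times their range, beside the medians of the other genes of chromosome 7 (diamonds) and of zinc finger genes of other chromosomes (triangles). The 3 KO_1E7 boxes are centred at -0.61, -0.43 and -0.62, while the CRISPR_1G2 and parental boxes are centred between -0.02 and 0.27.

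Against parental, 20 of the 77 members fell in KO_1E7 and 0 rose at an adjusted p under 0.05 (edgeR quasi-likelihood test, Benjamini-Hochberg over 15766 genes). This was 26.0% of the members, beside 2.87% of all tested genes called lower and 2.54% called higher. At an unadjusted p under 0.05, 44 members were lower and 0 higher, beside 13.2% and 10.5% of all genes, and DESeq2 called 35 lower and 0 higher, beside 8.04% and 6.92% of all genes. The median log2 fold change of the members was -0.58, against -0.03 for all genes tested, -0.44 for the 1163 other tested genes of chromosome 7 and 0.10 for 215 zinc finger genes of other chromosomes. Of those other genes of chromosome 7, 113 (9.72%) were lower and 15 higher, and of the zinc finger genes elsewhere 3 were lower and 5 higher. Negative log2 fold changes were found for 70 of the 77 members, and the full range was -3.86 to 0.56. They were found for 942 of the 1163 other genes of chromosome 7 and for 8231 of all 15766 genes. All KO_1E7 libraries were below all parental libraries for 51 members, where this held for 17.3% of all genes, and above them for 1 member, Zfp30, where this held for 17.2%. Of the 1163 other genes of chromosome 7, 459 were below in this way and 43 above. The median stayed between -0.60 and -0.51 over all alternatives run, while the count depended on single libraries. Library names also hold date-like strings, and pairs of libraries that share one were compared as values with no test. The median member was at -0.63 in KO_1E7 1 over parental 1 and, with NSG in both names, at -0.62 in KO_1E7 3 over parental 3, with 72 and 64 of 77 below 0. Without KO_1E7 3 the count of 20 was 0, without KO_1E7 1 or parental 1 it was 2, without parental 3 it was 7, without parental 2, CRISPR_1G2 1 or CRISPR_1G2 2 it was 8, and without CRISPR_1G2 3 it was 36. With parental 3 and CRISPR_1G2 3 both left out, 40 members were lower.

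Set against CRISPR_1G2, the members were lower in KO_1E7 as well. Here 32 of 77 fell and 0 rose, 41.6% of the members beside 7.03% of all genes called lower and 5.71% called higher. Of the 1163 other tested genes of chromosome 7, 242 (20.8%) were lower and 24 (2.06%) higher. At an unadjusted p under 0.05, 48 members were lower and 0 higher, beside 16.1% and 13.0% of all genes, and DESeq2 called 41 lower and 0 higher, beside 11.7% and 9.69%. The median was -0.73 for the members, -0.03 for all genes, -0.52 for the other genes of chromosome 7 and 0.01 for zinc finger genes of other chromosomes. No KO_1E7 library reached the lowest CRISPR_1G2 library for 53 members, where 19.4% of all genes showed this, and 0 members showed the opposite, where 19.2% of all genes did. Of the 1163 other genes of chromosome 7, 479 showed the former and 58 the opposite. Both comparisons use the same KO_1E7 libraries, so they are not independent. The NSG pair, KO_1E7 3 over CRISPR_1G2 3, had a median of -0.80 with 72 of 77 below 0. Leaving out KO_1E7 3 brought the count of 32 to 7, leaving out KO_1E7 1 to 11 and leaving out CRISPR_1G2 1 or 2 to 18 or 20.

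In CRISPR_1G2 against parental, 1 member fell, Zfp976, and 0 rose (edgeR), or 1.3% of the members beside 0.254% of all genes called lower and 0.0% called higher. Zfp976 met the count minimum through the parental libraries alone, so its call is a description only. At an unadjusted p under 0.05 there were 5 members, 3 of them higher, beside 7.73% of all genes (4.41% lower and 3.31% higher), and DESeq2 called 1 member higher and 1 lower, beside 0.438% and 1.05% of all genes. With the replicate number as a block, which joins same-numbered libraries, 0 members were lower and 0 higher by edgeR. CRISPR_1G2 1 and parental 2, which share a date-like string, carry different numbers, so the block does not join them. The members' median was 0.11, against 0.02 for all genes, with 52 of 77 positive. The libraries did not overlap for 13 members that were higher in CRISPR_1G2 and 2 that were lower, Zfp976 and Zfp771, where 6.64% and 6.45% of all genes did so. CRISPR_1G2 3 was the highest library for the summed level, and without library 3 of every group the members' median was 0.0074. Between libraries that share a date-like string, CRISPR_1G2 1 over parental 2, it was 0.06, and between those with NSG it was 0.32.

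**Figure D2:**
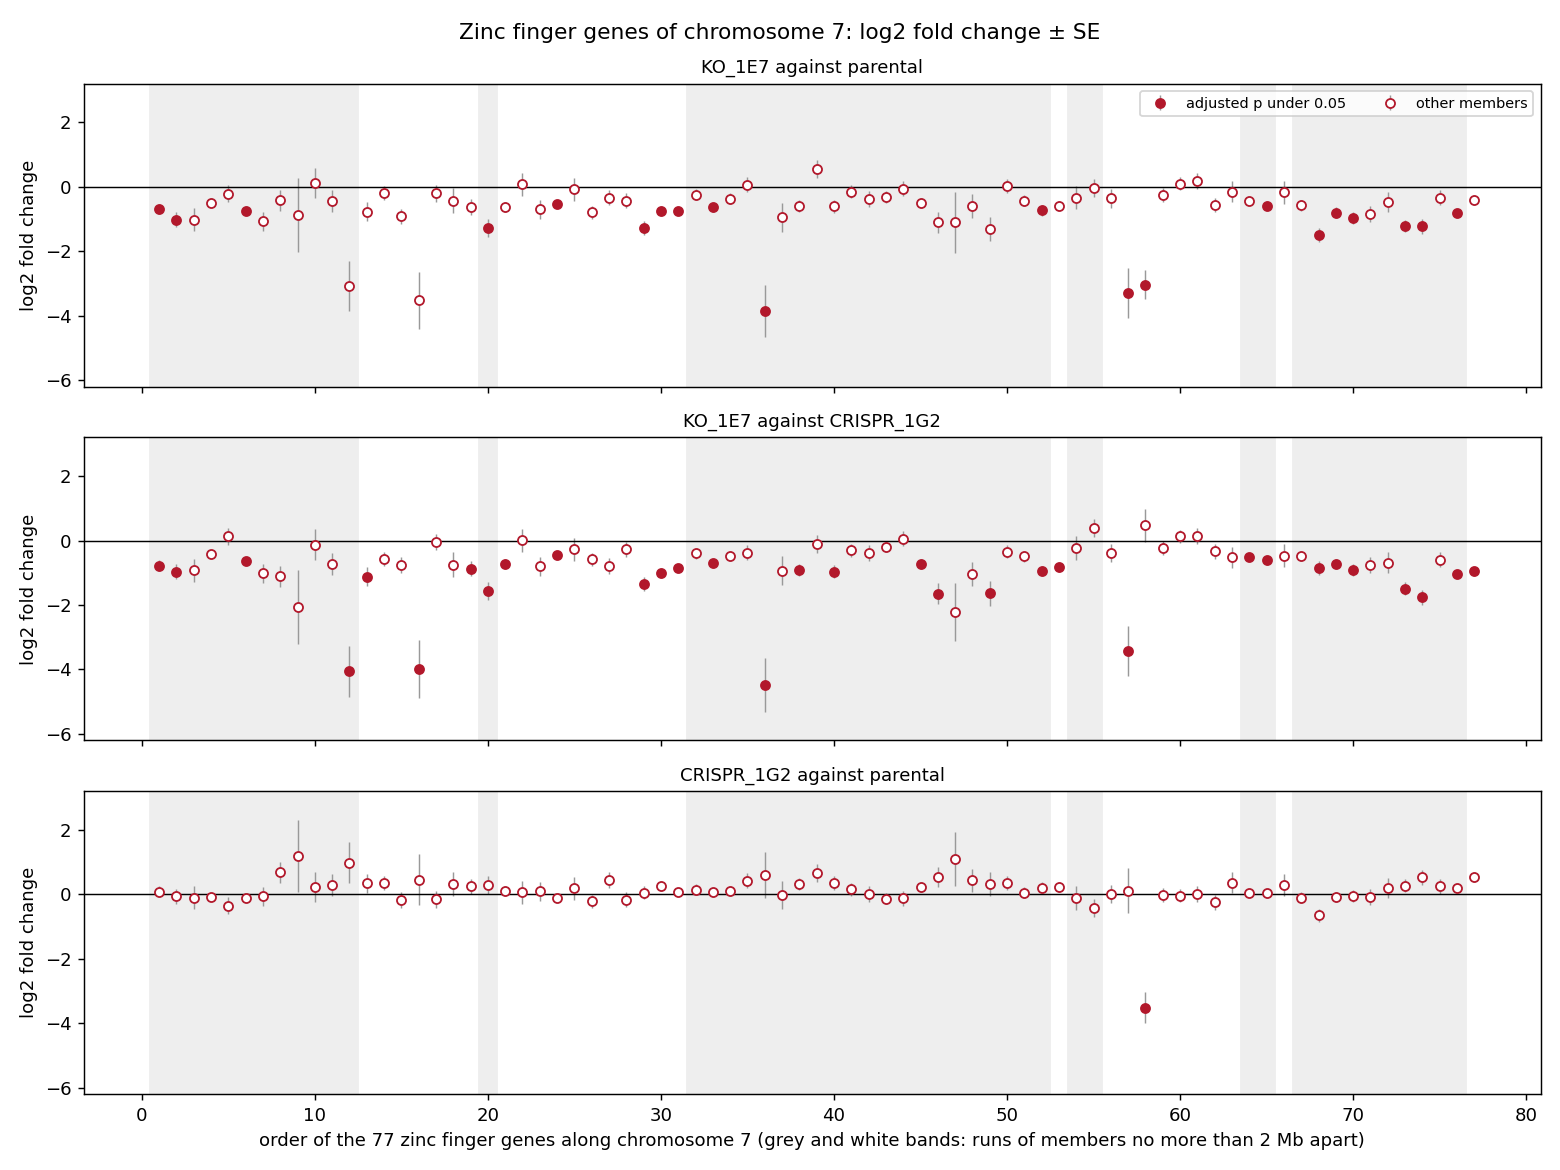
Log2 fold change ± SE of the 77 members in their order along chromosome 7, with 1 panel for each comparison, and filled points for adjusted p under 0.05. In the 2 panels with KO_1E7 most points lie just under 0 from end to end, with 4 or 5 members at -3 or lower, and in CRISPR_1G2 against parental the single filled point is Zfp976 at -3.52.

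While 54 members lay between 0 and -1 on the log2 scale, 5 stood far below the rest in KO_1E7 against parental, at -3.04 to -3.86. They were Zfp850, Zfp110, Zfp141, Zfp419 and Zfp976, and the next member, Zfp771, was at -1.50. The 250 bases before and 50 after the start of the 4 that code for a protein are shown because of these low fold changes in KO_1E7. The sequences are taken from RefSeq on GRCm38.p6, on the strand of each gene, with every CG in capitals, the dinucleotide at which mammalian DNA is methylated.
Zfp110, chr7:12834511-12834810, plus strand: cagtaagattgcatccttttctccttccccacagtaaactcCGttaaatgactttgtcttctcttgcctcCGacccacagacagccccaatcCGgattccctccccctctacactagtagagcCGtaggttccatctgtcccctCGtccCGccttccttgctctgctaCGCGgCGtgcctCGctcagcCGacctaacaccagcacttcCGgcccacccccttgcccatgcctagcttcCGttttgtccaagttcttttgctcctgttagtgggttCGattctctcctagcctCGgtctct
Zfp850, chr7:28014066-28014365, minus strand: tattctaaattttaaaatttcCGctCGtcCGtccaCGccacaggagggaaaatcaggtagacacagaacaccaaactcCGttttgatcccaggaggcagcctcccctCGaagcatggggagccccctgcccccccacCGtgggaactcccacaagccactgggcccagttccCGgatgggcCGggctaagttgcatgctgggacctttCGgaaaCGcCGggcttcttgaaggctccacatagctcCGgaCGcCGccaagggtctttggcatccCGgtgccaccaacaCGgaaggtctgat
Zfp141, chr7:42505704-42506003, minus strand: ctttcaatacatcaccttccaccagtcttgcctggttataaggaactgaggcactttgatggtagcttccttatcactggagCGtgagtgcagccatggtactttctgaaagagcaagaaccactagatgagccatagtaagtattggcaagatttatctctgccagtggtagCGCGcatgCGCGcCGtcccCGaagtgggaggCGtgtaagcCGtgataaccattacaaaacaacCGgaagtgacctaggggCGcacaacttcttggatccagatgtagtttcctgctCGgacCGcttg
Zfp976, chr7:42642555-42642854, minus strand: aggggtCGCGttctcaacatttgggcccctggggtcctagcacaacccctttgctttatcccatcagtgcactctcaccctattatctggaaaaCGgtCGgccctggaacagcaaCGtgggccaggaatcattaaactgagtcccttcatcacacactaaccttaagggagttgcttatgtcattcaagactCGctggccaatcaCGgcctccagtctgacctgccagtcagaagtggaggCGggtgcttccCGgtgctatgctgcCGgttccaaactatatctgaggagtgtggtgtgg
These windows hold 15, 17, 13 and 10 CG in that order. Methylation was not measured. Over the 81 promoters listed for 71 of the members the median was 14 CG, beside 7 over the 32851 promoters of the table. The members had passed a count minimum, while the 32851 were taken without one, so the sets compared here are unlike. On either strand, GGGCGG, the letters of an Sp1 box, occurred in 40.7% of the members' promoters beside 35.7% of all, GCCATNTT, the core of a YY1 motif, in 13.6% beside 6.05%, and TGACGTCA, the full CRE bound by CREB, in 3.7% beside 1.79%. None of the 4 windows printed holds any of these motifs. The 3 promoters with TGACGTCA were all of Zfp473, a gene that acts in histone pre-mRNA processing, named here for its promoters, which had log2 fold changes of -0.15 ± 0.33 (adjusted p = 0.826) against parental and -0.52 ± 0.33 (adjusted p = 0.337) against CRISPR_1G2 by edgeR.

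Zfp110 (ENSMUSG00000058638, chromosome 7, 12834761 to 12850577, plus strand, GRCm38) encodes a KRAB protein with 5 fingers, known as an interactor of the p75 neurotrophin receptor. It stood at 0.932, 9.22 and 0.656 CPM in KO_1E7 libraries 1, 2 and 3, at 45.4, 46.1 and 82.8 CPM in CRISPR_1G2 and at 46.3, 34.6 and 46.4 CPM in parental. Every KO_1E7 library lay below every other library, and KO_1E7 2 was several-fold above the other KO_1E7 libraries. The log2 fold change was -3.98 ± 0.90 against CRISPR_1G2 (SE, adjusted p = 0.0241) and -3.53 ± 0.88 against parental (adjusted p = 0.0549), which missed the threshold in edgeR. Without KO_1E7 2 it was -5.73 against parental (adjusted p = 0.000984), and over the alternatives that gave one the adjusted p lay between 2.73e-06 and 0.200. DESeq2 gave no adjusted p for it. The call against CRISPR_1G2 was lost without KO_1E7 1, KO_1E7 3, CRISPR_1G2 1 or CRISPR_1G2 2 (adjusted p = 0.0502 to 0.0800) and with no filter on low counts (0.110).

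Zfp850 (ENSMUSG00000096916, chromosome 7, 27984854 to 28014115, minus strand) codes for a KRAB protein with 16 fingers. Its level was 0.0565, 1.17 and 0.298 CPM in KO_1E7, 8.38, 7.65 and 19.7 CPM in CRISPR_1G2 and 6.31, 6.56 and 10.5 CPM in parental. Again no KO_1E7 library overlapped with the other groups and KO_1E7 2 was the highest of its group. It fell by 3.86 ± 0.82 on the log2 scale in KO_1E7 against parental (SE, edgeR adjusted p = 0.0350) and by 4.47 ± 0.84 against CRISPR_1G2 (adjusted p = 0.0129). Pooled counts were 74 in KO_1E7, 1119 in CRISPR_1G2 and 847 in parental, a depth-scaled ratio of parental over KO_1E7 of 12.8 (95% exact interval of counting error 10.1 to 16.5). The KO_1E7 libraries gave 2, 62 and 10 of these counts, so the ratio rests mostly on KO_1E7 2. The interval leaves out the spread between libraries.

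Zfp141 (ENSMUSG00000092416, chromosome 7, 42473386 to 42505740, minus strand), a KRAB gene with 10 fingers, had 0.169, 1.33 and 0.0895 CPM in KO_1E7, 5.48, 5.32 and 7.05 CPM in CRISPR_1G2 and 5.41, 5.10 and 5.94 CPM in parental. The groups of 3 did not overlap between KO_1E7 and either other group. It fell by 3.30 ± 0.78 on the log2 scale in KO_1E7 against parental (edgeR adjusted p = 0.0458) and by 3.42 ± 0.78 against CRISPR_1G2 (adjusted p = 0.0248). Of the 50-base words in its transcripts, 14.4% also occur in other genes, so some of its reads may have been lost or shared. Without KO_1E7 2 the fold changes of Zfp850 and Zfp141 against parental were -5.44 and -5.35, and leaving out any library other than KO_1E7 2 or CRISPR_1G2 3 ended both calls against parental, with adjusted p of 0.0587 to 0.160. So did dropping the filter on low counts (0.0811 and 0.0864). Against CRISPR_1G2, the call of Zfp850 was lost without KO_1E7 3 (0.0689) and that of Zfp141 without KO_1E7 1, KO_1E7 3, CRISPR_1G2 1 or CRISPR_1G2 2 (0.0563 to 0.0888).

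Zfp419 (ENSMUSG00000092312, chromosome 7, 9058360 to 9062754, minus strand), annotated as an unprocessed pseudogene, had 8 reads in all of KO_1E7, 101 in CRISPR_1G2 and 59 in parental. That was 0, 0.133 and 0.0298 CPM in KO_1E7, 0.690, 0.882 and 1.65 CPM in CRISPR_1G2 and 0.737, 0.496 and 0.389 CPM in parental, with no overlap of KO_1E7 with either. It fell by 4.06 ± 0.78 on the log2 scale against CRISPR_1G2 (edgeR adjusted p = 0.0141) and its log2 fold change against parental was -3.07 ± 0.78 (adjusted p = 0.0575). Without KO_1E7 2 the value against parental was -4.90 (adjusted p = 0.0343) and it was also called by DESeq2 (adjusted p = 0.00221), while without KO_1E7 3 the call against CRISPR_1G2 was lost (adjusted p = 0.0763). With 45.9% of its words found in other genes, its separate level is uncertain.

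KO_1E7 2 stood nearer to the other groups than KO_1E7 1 and 3 did in each of these 4 genes. It reached 21.7%, 15.1%, 24.2% and 24.5% of the parental mean for Zfp110, Zfp850, Zfp141 and Zfp419, where KO_1E7 1 reached 2.2%, 0.72%, 3.09% and 0.0% and KO_1E7 3 reached 1.55%, 3.83%, 1.63% and 5.51%. Igf2, a growth factor gene of the same chromosome that is no member, was likewise highest in KO_1E7 2 among the KO_1E7 libraries, with 5.53, 80.7 and 2.80 CPM in KO_1E7 libraries 1, 2 and 3, 295, 284 and 189 CPM in CRISPR_1G2 and 344, 323 and 230 CPM in parental. What sets KO_1E7 2 apart was not tested.

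Zfp976 followed another pattern, low in both clones. It is a KRAB gene with 18 fingers (ENSMUSG00000074158, chromosome 7, 42609526 to 42642588, minus strand) and lies between the members Zfp141 and Zfp975. Its level was 0.169, 0.0947 and 0.149 CPM in KO_1E7, 0.0363, 0.0945 and 0.152 CPM in CRISPR_1G2 and 1.20, 1.05 and 1.17 CPM in parental. The clones overlapped with each other, and all 6 of their libraries lay below the 3 parental libraries. It fell by 3.04 ± 0.44 on the log2 scale in KO_1E7 (edgeR adjusted p = 0.0132) and by 3.52 ± 0.47 in CRISPR_1G2 (adjusted p = 0.0248), both against parental, and KO_1E7 minus CRISPR_1G2 was 0.47 ± 0.52 (adjusted p = 0.665). Pooled counts were 16 in KO_1E7, 9 in CRISPR_1G2 and 124 in parental. The call in CRISPR_1G2 ended when any library other than CRISPR_1G2 3 was left out, with adjusted p of 0.0510 to 0.185, with the replicate number as a block (-3.53, adjusted p = 0.0531) and in a fit of the 2 groups alone (0.139). The call in KO_1E7 ended without KO_1E7 1 (0.0677) or KO_1E7 3 (0.0862). Of its 50-base words, 20.4% occur in other genes. Zfp975, of which this holds for 30.4%, had 2.12, 2.56 and 2.54 CPM in KO_1E7, 2.47, 2.90 and 3.08 CPM in CRISPR_1G2 and 2.95, 3.12 and 2.50 CPM in parental, with the groups overlapping.

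**Figure D3:**
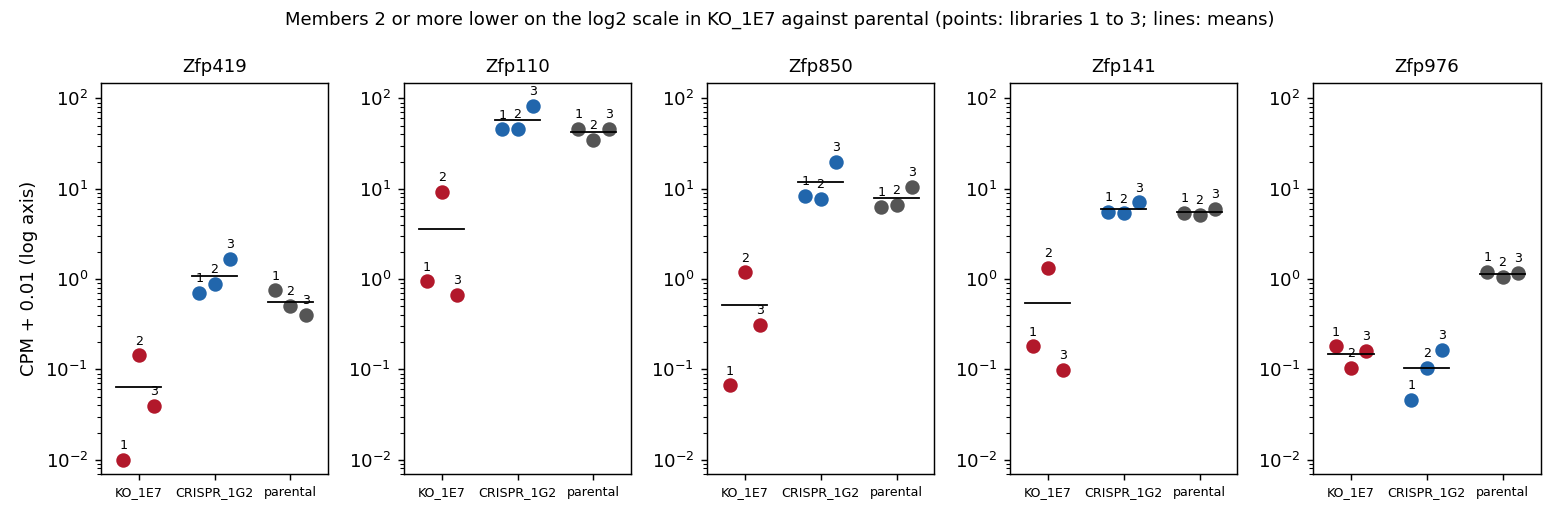
CPM + 0.01 on a log axis of the 5 members 2 or more lower on the log2 scale in KO_1E7 against parental, with numbered points for libraries 1 to 3 and lines for group means. KO_1E7 2 is the highest KO_1E7 library in Zfp419, Zfp110, Zfp850 and Zfp141, and Zfp976 is near 0.1 CPM in both clones and near 1.1 CPM in parental.

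The remaining 72 members had a median log2 fold change of -0.56 in KO_1E7 against parental, between -1.50 and 0.56. Of them 17 fell, beside 2.87% of all genes and 9.72% of the other genes of chromosome 7. With Zfp976, the members of smallest adjusted p were Zfp771, Zfp646, Zfp689, Zfp526 and Zfp428. Zfp771 (127244274 to 127254803), a gene with 8 fingers, had 13.6, 9.37 and 8.29 CPM in KO_1E7, 20.9, 19.7 and 15.6 CPM in CRISPR_1G2 and 30.9, 30.8 and 26.3 CPM in parental. Its 3 groups were fully separated, with CRISPR_1G2 in between. It fell by 1.50 ± 0.21 on the log2 scale in KO_1E7 against parental (SE, edgeR adjusted p = 0.0128) and by 0.85 ± 0.21 against CRISPR_1G2 (adjusted p = 0.0348), and CRISPR_1G2 minus parental was -0.65 ± 0.21 (adjusted p = 0.507). Without KO_1E7 3 the call against parental was lost (adjusted p = 0.0823).

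Zfp646 (127876221 to 127885996, 27 fingers) had 37.0, 36.0 and 35.4 CPM in KO_1E7, 75.8, 75.9 and 70.1 CPM in CRISPR_1G2 and 69.7, 67.6 and 54.6 CPM in parental. Its KO_1E7 libraries lay close together and below all others, with log2 fold changes of -0.82 ± 0.13 against parental (edgeR adjusted p = 0.0147) and -1.03 ± 0.13 against CRISPR_1G2 (adjusted p = 0.00310), the smallest adjusted p of the members. Its neighbour Zfp668 (127863047 to 127876828), whose human counterpart acts in DNA repair, lies on the other strand and overlaps its start, and 7.86% of the exon bases of Zfp646 lie under exons of another gene. Whether strand was used in counting is not given in the sources used here, so reads in that stretch may count for either gene. Zfp668 had 14.9, 15.4 and 13.7 CPM in KO_1E7, 27.4, 22.3 and 16.6 CPM in CRISPR_1G2 and 19.7, 22.4 and 13.4 CPM in parental. Here KO_1E7 and parental overlapped, and the log2 fold change was -0.34 ± 0.24 (adjusted p = 0.426).

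Zfp689 (127442136 to 127449158), a KRAB gene with 10 fingers, had 3.02, 3.82 and 4.03 CPM in KO_1E7, 9.36, 9.51 and 11.7 CPM in CRISPR_1G2 and 8.65, 8.08 and 8.47 CPM in parental. The KO_1E7 libraries were below all others, with log2 fold changes of -1.21 ± 0.19 against parental (edgeR adjusted p = 0.0165) and -1.49 ± 0.19 against CRISPR_1G2 (adjusted p = 0.00379). Zfp526 (25221425 to 25227507, 13 fingers) had libraries close together, at 11.0, 10.9 and 10.3 CPM in KO_1E7, 18.8, 18.7 and 20.1 CPM in CRISPR_1G2 and 18.0, 18.2 and 18.1 CPM in parental. It fell by 0.75 ± 0.13 on the log2 scale against parental (adjusted p = 0.0173) and by 0.84 ± 0.13 against CRISPR_1G2 (adjusted p = 0.00599). Zfp428 (24507006 to 24515682), with 1 finger, had 6.64, 4.66 and 4.24 CPM in KO_1E7, 14.0, 10.8 and 14.7 CPM in CRISPR_1G2 and 12.4, 12.7 and 12.7 CPM in parental. It was separated from both groups as well, by -1.29 ± 0.22 against parental (adjusted p = 0.0176) and -1.35 ± 0.22 against CRISPR_1G2 (adjusted p = 0.00736). The calls of Zfp646, Zfp689, Zfp526 and Zfp428 against parental were each lost without parental 1 (adjusted p = 0.0611 to 0.0704) or KO_1E7 3 (0.0843 to 0.113). Those of the first 3 were also lost without KO_1E7 1 (0.0677 to 0.0733), and that of Zfp526 without parental 2 (0.0505) and with no filter on low counts (0.0652).

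The other members that fell against parental, with their log2 fold changes, were Zfp296 (-1.27), a partner of the pluripotency factor KLF4, and Zfp629 (-1.2), Zfp579 (-1.03), Zfp747 (-0.97), Zfp768 (-0.80), Zfp574 (-0.74), Zfp787 (-0.74), Zfp146 (-0.73), Zfp628 (-0.68), Zfp626 (-0.64), Zfp592 (-0.58) and Zfp111 (-0.55). Their adjusted p-values ran from 0.0211 for Zfp787 to 0.0467 for Zfp628. Zfp747 shares 34.4% of its 50-base words with other genes, and Zfp296 and Zfp689 overlap exons of another gene over 12.9% and 13.9% of their length, so these 3 values are less certain. Of all members, 15 share over 10% of their words and 7 have over 10% of their exon bases overlapped.

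Against CRISPR_1G2, the smallest adjusted p-values outside those already given were of Zfp629, Zfp511 and Zfp574. Zfp629 (127607031 to 127615797, 19 fingers) had 10.2, 16.1 and 9.51 CPM in KO_1E7, 36.4, 34.6 and 50.8 CPM in CRISPR_1G2 and 29.5, 26.3 and 28.1 CPM in parental, with the order of the 3 groups complete. It fell by 1.76 ± 0.24 on the log2 scale in KO_1E7 against CRISPR_1G2 (edgeR adjusted p = 0.00443) and also against parental (adjusted p = 0.0269). Zfp511 (140036391 to 140040602), the member nearest the end of the chromosome, with 3 fingers, had 13.0, 15.1 and 11.4 CPM in KO_1E7, 26.0, 24.8 and 25.6 CPM in CRISPR_1G2 and 18.0, 18.0 and 16.4 CPM in parental. It fell against CRISPR_1G2 by 0.95 ± 0.15 (adjusted p = 0.00635), and its -0.41 ± 0.14 against parental missed the threshold (adjusted p = 0.132). Zfp574 (25072567 to 25083492, 18 fingers) had 16.2, 12.2 and 12.6 CPM in KO_1E7, 26.6, 27.0 and 27.8 CPM in CRISPR_1G2 and 22.8, 25.2 and 20.6 CPM in parental, and fell against CRISPR_1G2 by 0.99 ± 0.16 (adjusted p = 0.00684). In all 3 genes the KO_1E7 libraries lay below those of CRISPR_1G2 without overlap.

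Levels per length, in reads per kilobase of gene, scaled by depth as CPM is (RPKM), ran from 0.0221 to 16.7 among the members in KO_1E7, from 0.0189 to 32.1 in CRISPR_1G2 and from 0.0531 to 27.7 in parental. The median member stood at 1.78 RPKM in KO_1E7, 2.92 RPKM in CRISPR_1G2 and 2.69 RPKM in parental, and 21, 13 and 16 members in that order were under 1 RPKM. Zfp146, which codes for 10 fingers and little else and whose human counterpart was described as overproduced in pancreatic carcinomas, was the most abundant member at 16.7 ± 2.61 RPKM in KO_1E7, 32.1 ± 6.02 RPKM in CRISPR_1G2 and 27.7 ± 0.359 RPKM in parental (SD, n = 3 each). Its libraries had 49.5, 64.3 and 49.6 CPM in KO_1E7, 96.8, 90.6 and 127 CPM in CRISPR_1G2 and 92.1, 90.2 and 89.9 CPM in parental, so KO_1E7 did not overlap with the others. It fell by 0.73 ± 0.16 on the log2 scale against parental (edgeR adjusted p = 0.0393) and by 0.95 ± 0.17 against CRISPR_1G2 (adjusted p = 0.0102). The call against parental was lost without any one library other than KO_1E7 2 or CRISPR_1G2 3 (adjusted p = 0.0615 to 0.187), and with no filter on low counts (0.0646).

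By the mean RPKM over all 9 libraries, Zfp143 and Zfp180 came next, while in CRISPR_1G2 Zfp110 was second and in parental Zfp771 was. Zfp143 stood at 8.58 ± 1.30 RPKM in KO_1E7, 11.9 ± 6.26 RPKM in CRISPR_1G2 and 9.69 ± 2.86 RPKM in parental, and Zfp180 at 7.07 ± 0.953, 11.7 ± 1.59 and 10.9 ± 1.25 RPKM in that order. These neighbours in the order overlapped in every group. Zfp143, an activator of small nuclear RNA and many protein-coding promoters, had 26.6, 35.1 and 28.1 CPM in KO_1E7, 29.6, 28.0 and 66.6 CPM in CRISPR_1G2 and 27.1, 28.9 and 45.2 CPM in parental. Library 3 of CRISPR_1G2 and of parental was the highest of its group, all groups overlapped, and the log2 fold change of -0.17 ± 0.35 against parental (edgeR adjusted p = 0.806) turned to 0.11 without parental 3. Zfp180 had 28.7, 37.1 and 31.0 CPM in KO_1E7, 51.2, 47.1 and 61.2 CPM in CRISPR_1G2 and 56.0, 47.4 and 45.3 CPM in parental. KO_1E7 lay below both groups, at -0.62 ± 0.16 against parental (adjusted p = 0.0574) and -0.72 ± 0.16 against CRISPR_1G2 (adjusted p = 0.0218).

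**Figure D4:**
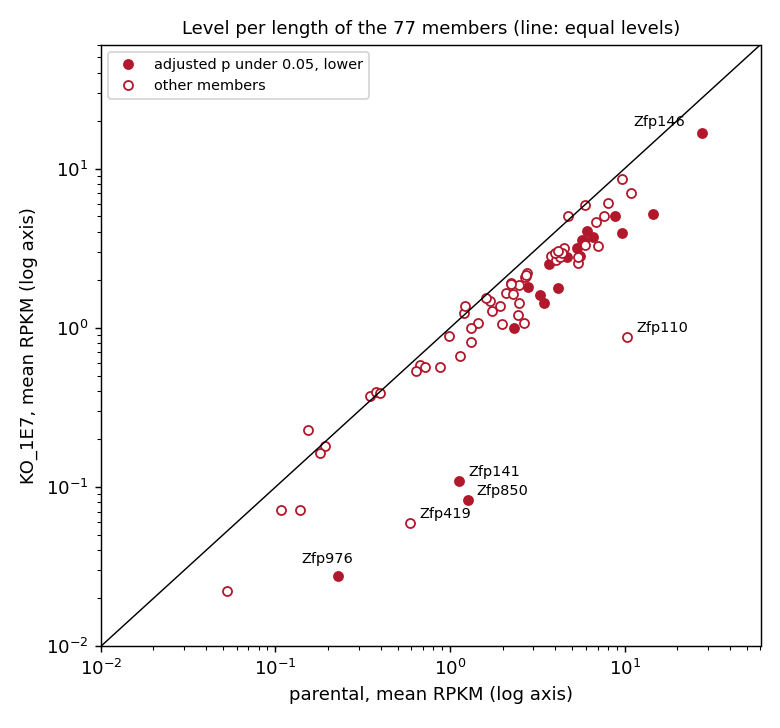
Mean RPKM of each member in KO_1E7 (vertical) against parental (horizontal), both on log axes, with filled points for members lower at an adjusted p under 0.05 and a line of equal levels. Most points lie a little under the line at every level, from Zfp146 at the top right downwards, and the 5 named low members lie far below it.

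In KO_1E7 against parental, the median member was below 0 in each of the larger clusters along the chromosome. The members were split by position into 12 runs, a new run starting after a gap of more than 2 Mb, and 6 runs had at least 5 members. The counts of each run stand beside 2.87% of all genes and 9.72% of the other genes of chromosome 7 called lower. In the run from Zfp553 to Zfp646 (127233061 to 127885996), 6 of 10 members fell in KO_1E7 against parental, with a median of -0.83, and 6 of the 29 other tested genes between them, with a median of -0.67. In the run from Zfp180 to Zfp526 (24081924 to 25227507), 4 of 11 members and 5 of 20 others fell, with medians of -0.62 and -0.72. The largest run, from Zfp60 to Zfp146 (27731389 to 30169750), had 3 of 21 members and 9 of 49 others lower, with medians of -0.50 and -0.61. In the first of these runs the median of the members was below that of the genes between them, and in the other two it was above.

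The run nearest the start, from Zfp628 to Zfp419 (4915217 to 9062754), had 3 of 12 members and 1 of 16 others lower, with medians of -0.71 and -0.41. Here too 2.87% of all genes were called lower. In the run from Zfp551 to Zfp446 (12415153 to 12985714), 0 of 7 members and 1 of 5 others fell by edgeR, with medians of -0.63 and -0.76. At an unadjusted p under 0.05, 4 of these members were lower, DESeq2 called 1, and Zfp110 was the lowest. The run from Zfp788 to Zfp473 (41633203 to 44751050) had the smallest shift, with 2 of 8 members and 1 of 27 others lower and medians of -0.31 and -0.40, and its 2 falls were those of Zfp141 and Zfp976. In CRISPR_1G2 against parental the medians of the members of these 6 runs lay between -0.00 and 0.32. Of the members in the smaller runs, Zfp296 and Zfp592 fell against parental.

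**Figure D5:**
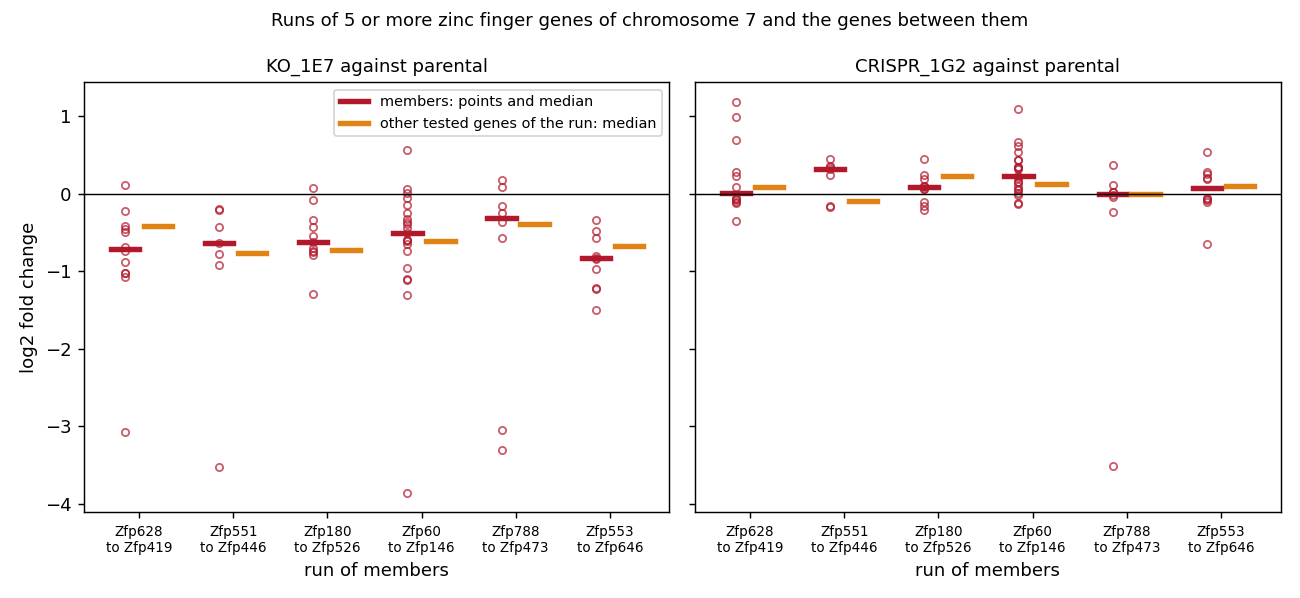
Log2 fold changes of the members (points, with the median as a red line) in the 6 runs of at least 5 members, beside the median of the other tested genes of each run (orange line), for KO_1E7 and for CRISPR_1G2, each against parental. In KO_1E7 the red and orange lines lie between -0.31 and -0.83 in every run, and in CRISPR_1G2 they lie between -0.10 and 0.32.

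The members with the highest log2 fold change of each of the 6 runs were Zfp418, Zfp606, Zfp112, Zfp30, Zfp658 and Zfp668, the last described above. Zfp30, which in mice affects the neutrophil chemokine response, had 1.36, 1.29 and 1.52 CPM in KO_1E7, 1.38, 1.29 and 1.80 CPM in CRISPR_1G2 and 0.819, 1.16 and 0.833 CPM in parental. Both clones lay above parental without overlap, but the log2 fold change in KO_1E7 of 0.56 ± 0.28 did not pass (edgeR adjusted p = 0.259), nor did 0.67 ± 0.28 in CRISPR_1G2 (adjusted p = 0.620). Zfp658 had 4.46, 4.81 and 5.13 CPM in KO_1E7, 4.75, 4.82 and 3.39 CPM in CRISPR_1G2 and 4.34, 5.16 and 3.25 CPM in parental. Its groups overlapped, at 0.18 ± 0.25 against parental (adjusted p = 0.713). Zfp606 had 8.64, 14.1 and 11.2 CPM in KO_1E7, 16.7, 17.3 and 16.3 CPM in CRISPR_1G2 and 14.0, 15.0 and 10.1 CPM in parental, with KO_1E7 and parental overlapping (-0.20 ± 0.22, adjusted p = 0.626).

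Zfp418 had 1.64, 2.08 and 2.30 CPM in KO_1E7, 2.83, 2.30 and 1.43 CPM in CRISPR_1G2 and 2.43, 2.46 and 0.694 CPM in parental. Parental 3 was its lowest library, and the log2 fold change of 0.11 ± 0.47 (edgeR adjusted p = 0.920) turned to -0.27 without it. Zfp112 had 1.75, 2.69 and 2.12 CPM in KO_1E7, 1.78, 1.45 and 3.29 CPM in CRISPR_1G2 and 1.83, 1.85 and 2.56 CPM in parental. All groups overlapped, and the log2 fold change against parental, 0.08 ± 0.36 (adjusted p = 0.928), was -0.00 without parental 1 and -0.10 without KO_1E7 2.

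Members with and without a KRAB pattern were both among those that fell. In KO_1E7 against parental, 13 of 31 members without the pattern fell (41.9%), with a median of -0.68. Of those with it, 7 of 44 fell (15.9%), with a median of -0.47, beside 2.87% of all genes. Against CRISPR_1G2, 18 of the 31 and 13 of the 44 fell, with medians of -0.78 and -0.63, beside 7.03% of all genes. The difference between these classes was not tested, nor was the part of read depth in it. Zfp14, Zfp108 and Zfp82, the members just inside the count minimum, all have the pattern. A single fixed pattern was searched, so a protein without a match may still hold a KRAB domain. Of the 5 genes with the lowest fold changes, 4 have the pattern and the other is the pseudogene Zfp419. Zfp568, a KRAB gene known to repress a placental transcript of Igf2 in mouse embryos and named here after its values were seen, had 21.5, 27.3 and 23.7 CPM in KO_1E7, 55.1, 54.4 and 117 CPM in CRISPR_1G2 and 45.9, 43.0 and 67.3 CPM in parental. Its KO_1E7 libraries lay below all others, and it fell by 1.65 ± 0.32 on the log2 scale against CRISPR_1G2 (edgeR adjusted p = 0.0146), while -1.11 ± 0.32 against parental missed the threshold (adjusted p = 0.0778).

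Genes through which KRAB proteins silence were examined as well. Of 30 genes for TRIM28, its partners and heterochromatin factors, 29 were tested. In KO_1E7 against parental, 0 rose and 0 fell by edgeR (5 at an unadjusted p under 0.05, beside 23.7% of all genes, and 1 each way by DESeq2), with a median of 0.09. Against CRISPR_1G2, 0 rose by edgeR or DESeq2 and 3 fell by edgeR, with 9 at an unadjusted p under 0.05. Of all genes, 7.03% fell by edgeR and 29.0% were at an unadjusted p under 0.05, so these counts show nothing particular to the list. The DNA methyltransferase gene Dnmt3a had 32.3, 50.8 and 33.9 CPM in KO_1E7, 61.2, 60.1 and 93.2 CPM in CRISPR_1G2 and 45.2, 49.1 and 53.6 CPM in parental. Morc2a, for an ATPase of heterochromatin, had 95.4, 114 and 103 CPM in KO_1E7, 150, 149 and 223 CPM in CRISPR_1G2 and 166, 140 and 185 CPM in parental. Suv39h2, for an H3K9 methyltransferase, had 26.3, 28.1 and 26.4 CPM in KO_1E7, 37.3, 36.2 and 37.0 CPM in CRISPR_1G2 and 32.7, 36.2 and 29.2 CPM in parental. All 3 were lower in KO_1E7 than in CRISPR_1G2 without overlap, with log2 fold changes of -0.87 ± 0.23, -0.74 ± 0.19 and -0.45 ± 0.12 in that order (edgeR adjusted p = 0.0404, 0.0373 and 0.0448). The count of 3 was 1 without parental 2 or KO_1E7 2, 3 without parental 3 and 0 without any one of the other libraries, and against parental 1 gene was higher and 1 lower without CRISPR_1G2 3. In CRISPR_1G2 against parental, 0 rose and 0 fell by edgeR, with 3 at an unadjusted p under 0.05, beside 7.73% of all genes, while DESeq2 called 1 higher. Trim28 itself lies on chromosome 7 just past the run from Zfp551 to Zfp446 (12999114 to 13031035). It had 253, 250.0 and 237 CPM in KO_1E7, 527, 481 and 246 CPM in CRISPR_1G2 and 454, 515 and 184 CPM in parental. Libraries 1 and 2 of CRISPR_1G2 and parental were all above KO_1E7, and library 3 of both was at or below it, so the groups overlapped. Its log2 fold change was -0.64 ± 0.38 against parental (adjusted p = 0.354) and -0.76 ± 0.39 against CRISPR_1G2 (adjusted p = 0.230). Setdb1, on chromosome 3, stood at 115 ± 2.91 CPM in KO_1E7, 111 ± 2.90 CPM in CRISPR_1G2 and 107 ± 5.14 CPM in parental, with 0.10 ± 0.10 against parental (adjusted p = 0.606).

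At the count minimum, the 3 members just inside, by the count reached in at least 3 libraries, were Zfp14 (10), Zfp108 (21) and Zfp82 (25). The genes just outside were Zfp784 (7), Zfp541 (2) and Zfp109 (2), and 15 genes were left out in all. Pooled counts of Zfp14 were 11 in KO_1E7, 37 in CRISPR_1G2 and 20 in parental, those of Zfp108 60, 55 and 57, and those of Zfp82 51, 82 and 71 in the same order. Zfp784 had 19, 13 and 22, Zfp541 had 2, 3 and 4 and Zfp109 had 3, 5 and 3.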

How the data were processed

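Bulk polyA RNA was measured in 9 Panc02 libraries, 3 each of KO_1E7, CRISPR_1G2 and parental. The authors deposited raw counts per gene, in whole numbers, as a series table and as 1 table a library, which differed in 0 of 447867 cells. Per the submitters' processing notes, bcl2fastq 2.17, STAR 2.5.2b, featureCounts of Subread 1.5.2, DESeq2 and the build GRCm38 were used. The 92 spike-in sequences, with 0.344% to 0.820% of the counts of a library, were kept out of library sizes. The members and lists were chosen with earlier results of these data known.

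Counts were fitted for all genes in edgeR 4.0.16 (R 4.3.3) with TMM scaling and the quasi-likelihood F test with robust estimation, all 9 libraries in 1 fit and no covariate, after edgeR's filter on low counts, which left 15766 genes. P-values were adjusted by Benjamini-Hochberg over these genes, and an adjusted p under 0.05 was called. The SE is the size of the log2 fold change over the square root of F. CPM used TMM-scaled library sizes, and RPKM divided CPM by the deposited gene length. Deviations from the group means had correlations across genes of 0.24, 0.47 and 0.65 between same-numbered CRISPR_1G2 and parental libraries. The differently numbered CRISPR_1G2 1 and parental 2, which share a date-like string, had 0.54, above same-numbered libraries 1 and 2. CRISPR_1G2 2 and parental 1 had 0.14. The numbers thus do not settle which libraries of these groups pair, and the replicate block is given as an alternative only. The step was tested on simulated data. Alternatives were DESeq2 1.42.0, other scaling and filters, the replicate number as a block, a term for NSG, fits of the compared groups alone and leaving out libraries. Intervals of pooled counts are exact at 95% and cover counting error only.

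Fingers (C, 2 to 4 residues, C, 12 residues, H, 3 to 5 residues, H), a KRAB A box pattern, exon overlap and the share of 50-base words found in other genes came from GENCODE M21 on GRCm38. Promoters came from RefSeq on GRCm38.p6.

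Genes named with values were up to 6 called members of smallest adjusted p per comparison and direction, the 3 highest per length, the member of highest and of lowest log2 fold change of each run of 5 or more, those at the count minimum, and Trim28, Setdb1 and the called cofactor genes. Zfp975, Zfp568, Zfp473 and Igf2 were named after their values were seen.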

Additional observations from a re-analysis of the deposited data

How the results depend on the processing

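In KO_1E7 against parental, 20 members were lower in the reported fit. Of the alternatives, no filter on low counts gave 8, DESeq2 35, a term for NSG 33, leaving out parental 3 and CRISPR_1G2 3 gave 40, also leaving out KO_1E7 2 gave 48, and a fold of at least 2 gave 9. Leaving out 1 library gave 0 to 36. Against CRISPR_1G2 the count of 32 was 12 at a fold of at least 2 and 7 to 33 without 1 library, and the members' median of -0.73 was -0.60 without parental 3 and CRISPR_1G2 3, -0.55 without library 3 of every group and -0.76 to -0.59 without 1 library. In CRISPR_1G2 against parental, DESeq2 called 1 member higher, and the 1 lower became 0 with the replicate block, in the fit of 2 groups, without library 3 of every group, and 0 to 1 without 1 library.

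Of the cofactor genes in KO_1E7 against parental, the count higher was 1 by DESeq2, 1 with the NSG term, 3 without parental 3 and CRISPR_1G2 3, 5 also without KO_1E7 2, 1 without library 3 of every group and 0 to 1 without 1 library. The count lower in that order was 1, 1, 4, 6, 2 and 0 to 1, and 1 in the fit of 2 groups. Against CRISPR_1G2, 2, 5, 5 and 2 were higher with the NSG term and under the last 3 sets of left-out libraries, and 0 to 1 without 1 library. The 3 lower became 5 by DESeq2, 6 with the NSG term, 0 in the fit of 2 groups, 8 and 8 without those libraries, and 0 to 3 without 1 library. DESeq2 called 1 higher in CRISPR_1G2 against parental.

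The log2 fold change of Zfp143 in KO_1E7 against parental turned to 0.11 without parental 3 (-0.30 to 0.11 without 1 library), 0.10 without parental 3 and CRISPR_1G2 3 and 0.15 without library 3 of every group. That of Zfp418 turned to -0.27 (-0.27 to 0.36 without 1 library), -0.28 and -0.38 under those settings and -0.31 without parental 3, CRISPR_1G2 3 and KO_1E7 2, that of Zfp112 to -0.00 without parental 1 and -0.10 without KO_1E7 2 (-0.10 to 0.26 without 1 library), and that of Zfp658 to -0.0225 without library 3 of every group. For 31 results of single genes, 586 values were computed, of which 488 kept direction and call, 68 lost the call, 20 gained it and 10 changed sign. The cause was not tested. All-gene medians stayed between -0.04 and 0.04.

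Replicate numbers were not taken to pair KO_1E7 with either group, since same-numbered libraries had correlations of -0.00, 0.06 and 0.15 with parental and -0.05, 0.13 and 0.07 with CRISPR_1G2. With the replicate block, 26 members were lower in KO_1E7 against parental and 36 against CRISPR_1G2. In CRISPR_1G2 against parental, the block ended the call of Zfp976 and changed no other call of a member or silencing cofactor gene. Whether the numbers pair the libraries of these groups is not settled. Depth limits members of few reads, such as Zfp14 and Zfp419. The libraries with doubt about them were left out in settings chosen after seeing the data.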
